A study of Mus musculus with 10 samples.

Results

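The fucosyltransferase genes Fut1, Fut2, Fut4, Fut7, Fut8, Fut9, Fut10 and Fut11 were examined for binding of the aryl hydrocarbon receptor (AHR) in mouse colon organoids. They are 8 of the 21938 protein-coding genes in the annotation (GENCODE M21, assembly mm10, which has the sequence of GRCm38). A peak was assigned to a gene when it overlapped the gene body or 10 kb on either side, and this gave 53 of the 123652 peaks called in wild type organoids and 2 of the 1931 peaks called in AHR knockout (KO) organoids. No peak fell in the window of more than a single member of the family.

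The data were chromatin immunoprecipitation with sequencing (ChIP-seq) with an antibody to AHR. The 4 wild type ChIP libraries each had an input library of sheared chromatin without antibody, and the AHR KO had 1 ChIP and 1 input library. Every group, the AHR KO included, was grown in the Wnt-supplemented medium WENR and was exposed to FICZ, a ligand of AHR, at 5 nM for 1 hour, so there was no untreated group. The study's methods describe crypts from the whole colon of wild type and Vil-Cre Ahr fl/fl mice on a C57BL/6 background. The villin promoter drives Cre in the intestinal epithelium, and the organoids hold epithelium only. The methods describe biological replicates of both genotypes for the ChIP, while the labels show a single AHR KO library pair and do not say whether cultures were combined in it. The deposited lists carry 1 score per peak, a fold enrichment of ChIP over the expected background, and no value per culture. The scores and counts below therefore have no replicate error, and no test between genotypes was possible. Intervals given with counts and shares are 95% intervals that cover counting error only. The lists hold no expression, so neither the cell type nor the loss of Ahr could be checked from them.

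Fucosyltransferases attach fucose from GDP-fucose to the sugar chains of glycoproteins and glycolipids. Fut1 and Fut2 make the H antigen through an alpha1,2 linkage, and Fut2 is known for fucosylating the surface of the gut epithelium. Fut4, Fut7 and Fut9 add fucose in an alpha1,3 linkage to build Lewis x and sialyl Lewis x structures, and Fut8 adds the alpha1,6 core fucose of N-glycans. Fut10 and Fut11 are related to the alpha1,3 enzymes by sequence. AHR, once it has bound a ligand, pairs with ARNT on DNA words built around the core GCGTG, of which TNGCGTG is the fuller form.

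The sequences under the peaks that matter most for what follows are shown first, 5′ to 3′ on the strand named (GRCm38). The first set holds 120 bases from peaks in runs of CA or TG. Capitals mark the core GCGTG or its complement CACGC, except in the peak of Fut9 intron 2, where they mark the longest unbroken CA run. They are shown because the highest-scoring peak of the family, the peak nearest to the start of a family gene and the peak at Fut9 that touched an AHR KO peak are all of this type.
Fut4, downstream of the gene, chr9:14746685-14746804, minus strand: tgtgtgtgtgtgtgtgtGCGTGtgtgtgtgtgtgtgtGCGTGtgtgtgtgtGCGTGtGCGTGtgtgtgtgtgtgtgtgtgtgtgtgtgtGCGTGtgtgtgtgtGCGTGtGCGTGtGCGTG
Fut1, upstream of the start, chr7:45612993-45613112, plus strand: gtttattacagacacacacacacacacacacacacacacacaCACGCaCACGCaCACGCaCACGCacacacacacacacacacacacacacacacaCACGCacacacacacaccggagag
Fut9, upstream of the start, chr4:25801356-25801475, minus strand: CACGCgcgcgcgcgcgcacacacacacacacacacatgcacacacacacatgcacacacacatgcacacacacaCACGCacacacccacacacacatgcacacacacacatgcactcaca
Fut9, intron 2, chr4:25676644-25676763, minus strand: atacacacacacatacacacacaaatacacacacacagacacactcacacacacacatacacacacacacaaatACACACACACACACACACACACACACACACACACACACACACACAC

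The second set shows the only full AHR word TNGCGTG within 100 bases of a peak midpoint, at Fut9 intron 1, beside copies of the same element at Fut4 and Fut10. Capitals mark the 14-base word common to the 3 copies and, at Fut9, the AHR word that overlaps its end. Over the 44 bases that all 3 copies cover from the first capital, the Fut4 and the Fut10 copy each differed from the Fut9 copy at 3 bases, and where Fut9 read TTGCGTG both read TTGCAAG.
Fut9, intron 1, chr4:25791249-25791352, minus strand: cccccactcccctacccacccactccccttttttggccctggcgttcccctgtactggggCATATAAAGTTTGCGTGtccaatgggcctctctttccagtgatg
Fut4, upstream of the start, chr9:14760815-14760858, plus strand: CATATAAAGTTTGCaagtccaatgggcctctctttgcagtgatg
Fut10, intron 5, chr8:31239021-31239124, plus strand: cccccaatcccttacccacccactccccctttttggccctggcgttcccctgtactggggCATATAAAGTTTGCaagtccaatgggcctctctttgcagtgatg

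The third set comes from a second element, found under peaks at 5 of the 8 genes. Capitals mark its shared 14-base word and any AHR core, read as GCGTG or CACGC. It is shown because it carried the intronic peaks of Fut2 and Fut11. It also carried the peak nearest to the start of Fut7 that was not a CA repeat. Part of the wild type peak beside Fut1 that touched an AHR KO peak held it too. In that peak the shared word and the core shown lay toward the end, outside the 200 bp window. The 1 core in that window was a different one.
Fut2, intron 1, chr7:45661963-45662045, plus strand: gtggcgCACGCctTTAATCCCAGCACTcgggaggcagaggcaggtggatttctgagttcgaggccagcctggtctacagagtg
Fut7, upstream of the start, chr2:25419943-25420048, plus strand: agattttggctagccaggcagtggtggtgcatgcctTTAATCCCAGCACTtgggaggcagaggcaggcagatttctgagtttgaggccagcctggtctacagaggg
Fut11, intron 2, chr14:20697493-20697598, plus strand: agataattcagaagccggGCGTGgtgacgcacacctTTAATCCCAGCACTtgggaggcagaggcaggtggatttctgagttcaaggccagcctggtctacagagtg
Fut1, downstream of the gene, chr7:45623794-45623877, plus strand: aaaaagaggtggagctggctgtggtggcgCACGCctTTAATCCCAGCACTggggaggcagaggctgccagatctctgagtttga

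The last sequence is from the highest-scoring peak at Fut8, with its single AHR core in capitals. It holds the same element on the opposite strand, and at the place of the Fut9 word it reads CTGCGTG, which keeps the core GCGTG but is not TNGCGTG. Over the 36 bases that end with this word, it differed from the Fut9 copy at 4.
Fut8, intron 3, chr12:77291806-77291925, plus strand: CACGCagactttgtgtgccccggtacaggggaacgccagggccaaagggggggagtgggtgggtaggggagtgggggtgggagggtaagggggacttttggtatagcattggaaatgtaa

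All 8 fucosyltransferase genes had at least 1 wild type peak, against 78.3% of protein-coding genes. Within the gene body alone, 5 of the 8 had a peak (Fut2, Fut8, Fut9, Fut10 and Fut11) against 49.7% of protein-coding genes. With peaks in the top 10% of scores only, 5 had a peak (Fut1, Fut4, Fut8, Fut9 and Fut10) against 23.0%. The 53 peaks had scores from 3.31 to 12.7 with a median of 5.65, and the median over all wild type peaks was 5.32. Of the 53, 39 were in introns, 11 upstream of a gene, 3 downstream and 0 in an exon. A peak midpoint lay within 5 kb of the start at 7 of the 8 genes, Fut4 being the exception, against 34.7% of protein-coding genes. These were 9 peaks in all, and 0 of the 53 lay within 1 kb of the start of their own gene. The split by position and the count within 1 kb were not computed over all wild type peaks. Neither is therefore read as particular to these genes. A single peak, downstream of Fut11, lay within 1 kb of the start of another protein-coding gene, at 736 bp from Chchd1.

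**Figure D1:**
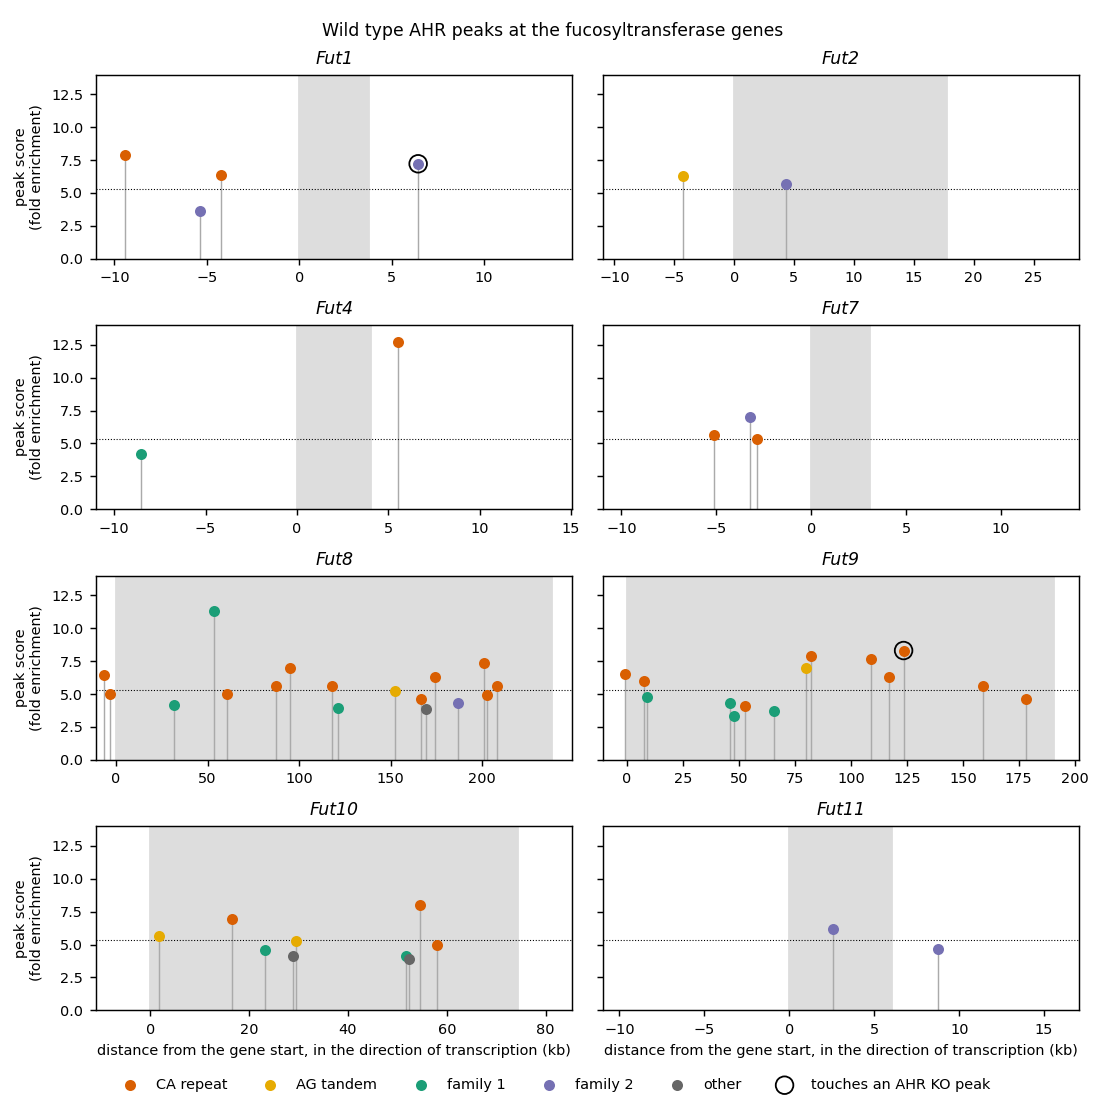
Every wild type peak at the 8 genes, by distance of its midpoint from the gene start in kb (x axis, positive in the direction of transcription) and score as fold enrichment (y axis). The gene body is shaded, the dotted line is the median of all wild type peaks (5.32), colours give the kind of sequence, and rings mark the 2 peaks that touched an AHR KO peak; the peaks of Fut8, Fut9 and Fut10 were spread along their introns, and the Fut4 peak of 12.7 stood highest.

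Fut1 and Fut2, the alpha1,2 enzymes, lie close together on chromosome 7. Fut1 (ENSMUSG00000008461.6, chr7:45617289-45621059, plus strand) had 4 peaks, and 0 of them were in the gene body. The highest, at chr7:45607740-45607939, had a score of 7.89 and lay 9449 bp upstream in a CA repeat, with 83.0% of its 200 bp window soft-masked, that is, in lower-case bases that mark repeats in the reference. A peak 5361 bp upstream scored 3.62, the lowest at Fut1. The peak 4236 bp upstream, at chr7:45612927-45613179, scored 6.39 and held 5 AHR cores, all inside the CA run shown above. The fourth, at chr7:45623558-45623877, scored 7.22 and lay 6429 bp from the Fut1 start, beyond the end of the gene and inside Izumo1, a gene needed for sperm and egg to fuse. The 3 upstream peaks were closer to the start of Fgf21, and the downstream peak to that of Izumo1, than to the start of Fut1. Counted by the nearest start, Fut1 would thus have 0 peaks and 7 of the 8 genes would have a peak. The share of all protein-coding genes by that count was not computed.

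Fut2 (ENSMUSG00000055978.5, chr7:45648591-45666394, minus strand) had 2 peaks, placed at nearly the same distance on either side of its start. The upstream peak, at chr7:45670576-45670790, scored 6.31 and lay 4289 bp away in a 58 bp run of AG units, 80.0% masked. It held no AHR core and carried the TEAD word GGAATG. The other, at chr7:45661963-45662142 in intron 1, scored 5.65 and lay 4341 bp inside the gene. Its window was 100.0% masked and held 2 AHR cores, of which 1 lay inside the 180 bp peak itself. Fut2 was among the 2 genes of the family without a CA repeat in the 200 bp window of any peak, the other being Fut11.

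Fut4, Fut7 and Fut9 are the alpha1,3 enzymes of the Lewis x antigens. Fut4 (ENSMUSG00000049307.6, chr9:14748320-14752393, minus strand) had 2 peaks that stood far apart in score. The peak at chr9:14746597-14747122 scored 12.7, rank 292 in the wild type list and the highest of the family. It lay 5533 bp from the start, past the end of the gene, in a CA repeat with 12 AHR cores in its 200 bp window and 19 over the whole peak. The window was 100.0% masked and the whole peak 65.4%. The other, at chr9:14760815-14761020, lay 8525 bp upstream with a score of 4.20 and held no core.

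Fut7 (ENSMUSG00000036587.13, chr2:25423267-25426374, plus strand) makes sialyl Lewis x, a ligand of selectins. Its 3 peaks were all upstream, and 0 of them held an AHR core. The highest, at chr2:25419923-25420127, scored 6.98 at 3242 bp from the start, was 100.0% masked and held no CA repeat. A peak at chr2:25420320-25420524 scored 5.32 at 2845 bp in a CA repeat, 86.5% masked. The farthest, 5104 bp upstream, scored 5.65 in a CA repeat.

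Fut9 (ENSMUSG00000055373.8, chr4:25609332-25800244, minus strand) is a long gene of 190.91 kb and had 14 peaks, 13 of them in its introns. Their scores ran from 3.31 to 8.31 with a median of 5.82, and 9 were CA repeats. The peak nearest to the start, at chr4:25801128-25801530, lay 1085 bp upstream and scored 6.55, rank 21669 in the list. Its window was 100.0% masked and held a 20 bp unbroken CA run and 1 AHR core. The whole peak was 81.4% masked and held 2 cores. Of all 53 peaks it was the closest to the start of its own gene.

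Intron 1 of Fut9 held 8 peaks. In order from the start, the first lay 7.4 kb in, scored 5.98 and was a CA repeat with 2 cores. The next, at chr4:25791119-25791431 and 9.0 kb in, scored 4.76 and held the word TNGCGTG shown above. It ranked 81580 in the list and was 100.0% masked. Peaks at 46.1, 47.8 and 65.6 kb scored 4.32, 3.31 and 3.70. They shared 20, 14 and 59 of their 14-base words with the peak at 9.0 kb. A CA repeat at 52.5 kb scored 4.09. The remaining peaks of this intron were higher, with 6.98 in an AG run at 80.1 kb and 7.89 in a CA repeat at 82.2 kb.

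Intron 2 of Fut9 held 5 peaks, all CA repeats. The highest of the gene, at chr4:25676538-25676881, scored 8.31, rank 4484, at 123.5 kb from the start, was 88.0% masked and had no AHR core. The peaks at 109.0 and 117.0 kb scored 7.64 and 6.31. The last 2, at 159.1 and 178.2 kb, scored 5.65 and 4.65. Each of these 5 windows was free of the AHR core, although the whole peak at 178.2 kb held 2.

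Fut8 (ENSMUSG00000021065.16, chr12:77238125-77476338, plus strand), the core fucosyltransferase, is the longest gene of the family at 238.21 kb and had the most peaks, 17, of which 11 were CA repeats. Its highest peak, at chr12:77291791-77292002 in intron 3, scored 11.3, rank 587, at 53.8 kb from the start. It was 100.0% masked and not a CA repeat, and the score corresponds to a pileup of 33 fragments over a background of 2.01. The 2 upstream peaks were CA repeats. The peak at chr12:77234586-77234771 lay 3446 bp from the start, scored 4.98 and was 37.0% masked, and that at 6523 bp scored 6.45.

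The other intronic peaks of Fut8 ran through introns 1 to 9 of the 12 in its longest coding transcript. Intron 1 held a peak of 4.17 at 31.7 kb and intron 3 a second peak of 5.00 at 60.5 kb. A CA repeat in intron 4, at 87.1 kb, scored 5.65. Intron 5 held peaks of 6.98, 5.65 and 3.92 at 94964, 117820 and 121111 bp, the first 2 of them CA repeats. An AG run of 60 bp in intron 7, at 152.5 kb, scored 5.27. Intron 8 held peaks of 4.65, 3.90 and 6.31 at 166.6, 169.1 and 174.1 kb, and intron 9 peaks of 4.32, 7.37, 4.96 and 5.65 at 186.6, 201.1, 202.6 and 207.8 kb. The peak of 7.37 was the second highest of the gene and lay in a CA repeat of 27 separate words. Of all 17 peaks, 5 held an AHR core in the window and 0 touched an AHR KO peak.

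Fut10 (ENSMUSG00000046152.16, chr8:31187331-31261738, plus strand) had 9 peaks, all in introns. The highest, at chr8:31241709-31241929 in intron 5, scored 7.98 at 54.5 kb from the start, in a CA repeat that was 61.5% masked and held 1 core, the only core in a window at this gene. The peak nearest to the start, at chr8:31188915-31189113 in intron 2, scored 5.65 at 1683 bp, was 88.0% masked and lay in a 51 bp run of AAAG units without a core. Intron 4 held 4 peaks, with scores of 6.98 at 16.5 kb in a CA repeat, 4.60 at 23.2 kb, 4.14 at 28.8 kb and 5.28 at 29.5 kb in an AG-rich run. The other peaks of intron 5 scored 4.17 at 51.7 kb, 3.92 at 52.4 kb and 5.00 at 58.0 kb.

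Fut11 (ENSMUSG00000039357.2, chr14:20694968-20701016, plus strand) had 2 peaks. The higher, at chr14:20697450-20697652 in intron 2, scored 6.20 at 2583 bp from the start, was 86.0% masked and held 1 core. It also overlapped the annotated gene 6230400D17Rik. The other, at chr14:20703562-20703922, lay 8774 bp from the start, past the end of the gene and closer to the start of Chchd1, and scored 4.65. Its window was 5.0% masked, the lowest of the family, and held no core and no CA repeat, while the whole peak held 1 TNGCGTG and a 26 bp run of CA or TG, which made it a CA repeat over its full width.

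The full AHR word TNGCGTG was present in 1 of the 53 windows (1.89%, interval 0.334 to 9.94), against 2.84% of all wild type peaks. Over whole peaks it was present in 2 (3.77%), at Fut9 and Fut11, against 3.85% of all wild type peaks, and both scored below the median of the list. The core GCGTG, which is contained in the full word, was searched on both strands like every word here and was in 16 windows (30.2%, interval 19.5 to 43.5), against 17.7% of all peaks. These 16 were spread over every gene except Fut7. Within CA repeats, 10 of 28 held the core against 21.2% in the whole list, and outside them 6 of 25 did against 12.9%. Peaks under copies of a shared element are not separate draws of sequence, and no test was made of these shares.

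The TEAD word GGAATG was found in 6 windows (11.3%, interval 5.29 to 22.6), at Fut2, Fut8, Fut9 and Fut10, against 7.24% of all wild type peaks. The AP-1 words TGAGTCA and TGACTCA were in 0 of 53 windows, which allows a share of up to 5.66% by the limit of 3 counts, and in 1.28% of all peaks.

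CA repeats, defined as windows in which CACACA or TGTGTG occurred at least 3 times without overlap, made up 28 of the 53 peaks (52.8%, interval 39.7 to 65.6), close to the 57.3% of all wild type peaks. At least 50% of the window was masked in 48 peaks (90.6%, interval 79.7 to 95.9), against 86.0%. Both list values lie inside the intervals of the family.

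**Figure D2:**
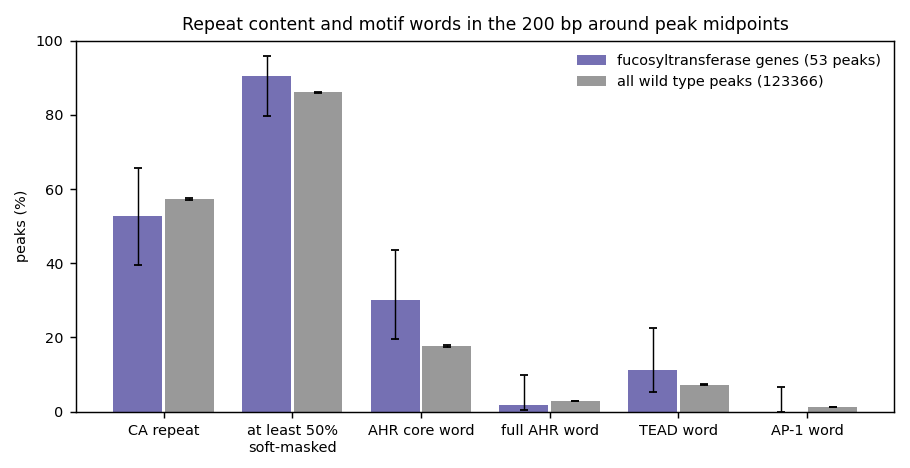
Share of windows (y axis, in percent) with each sequence feature (x axis) for the 53 peaks at the fucosyltransferase genes and for all 123366 wild type peaks on chromosomes 1 to 19, X and Y. Error bars are 95% Wilson intervals for counting error; the bars of the family and the list lie close for CA repeats (52.8% and 57.3%), and the AHR core is at 30.2% and 17.7%.

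The 25 peaks outside CA repeats were compared with each other by the 14-base words they shared over their whole width. AG runs, tandem repeats of at least 20 bp built of A and G only, accounted for 5 peaks at Fut2, Fut8, Fut9 and Fut10, with scores from 5.27 to 6.98. A first family of shared sequence accounted for 10 at Fut4, Fut8, Fut9 and Fut10, each 100.0% masked. Their scores ran from 3.31 to 11.3 with a median of 4.18, and an 11th peak, at Fut9, had family 1 sequence and a CA repeat. A second family accounted for 7 at Fut1, Fut2, Fut7, Fut8 and Fut11, with a median score of 5.65. The CA repeats had a median of 6.15. The remaining 3 peaks, at Fut8 and Fut10, were of no shared kind and scored from 3.90 to 4.14.

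The same sequences occurred across the whole list. The commonest word of family 1, in 6 of its peaks, was present in 10.2% of all wild type peaks and 0.587% of AHR KO peaks. That of family 2, also in 6, was in 5.21% and 0.747%. The AHR KO list came from 1 library pair, so its lower shares were not read as a need for AHR. The letters of family 2 resemble those of the mouse B1 element, a short interspersed repeat. In family 1, the high-scoring Fut8 peak of 11.3 shared 79 of its 14-base words with the Fut9 peak that held TNGCGTG, which scored 4.76. No repeat annotation was used here, so the resemblance to B1 was not checked and family 1 was not named.

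**Figure D3:**
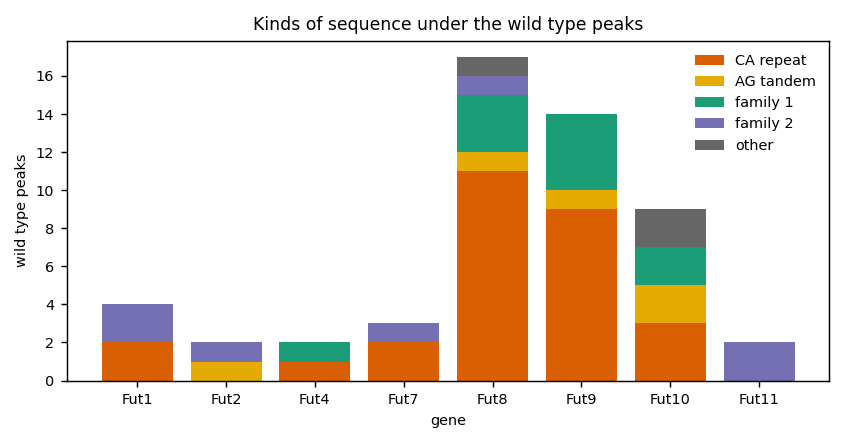
Number of wild type peaks (y axis) at each gene (x axis), divided by the kind of sequence under them. CA repeats were the largest class at Fut8 (11 of 17) and Fut9 (9 of 14) and were absent from the 200 bp windows at Fut2 and Fut11.

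The AHR KO libraries served as the control for enrichment without the receptor. Their list had a peak at 2 of the 8 genes, Fut1 and Fut9, against 4.47% of protein-coding genes. At the rate of AHR KO peaks over all protein-coding windows, 0.515 would be counted in windows of this total length, so the difference rests on 2 peaks. The Fut1 peak, at chr7:45623487-45623942, had a score of 12.4 in its own list, rank 27, and lay inside Izumo1 at 1904 bp from the Izumo1 start. It was 47.0% masked and not a CA repeat, and it shared 320 bp with the wild type peak of 7.22. The Fut9 peak, at chr4:25676733-25676978 in intron 2, scored 6.22, rank 1258, in a CA repeat that was 40.5% masked, and it shared 149 bp with the highest wild type peak of the gene. A score depends on the depth of its own list, so the paired values are not a comparison. The other 51 wild type peaks touched no AHR KO peak, and 2 of 53 (3.77%, interval 1.04 to 12.8) stands against 1.46% of all wild type peaks. The AHR KO list came from 1 library pair and held 1931 peaks, against 123652 from 4 wild type pairs. A wild type peak without an AHR KO peak was therefore not read as signal lost with the receptor.

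The long genes Fut8, Fut9 and Fut10 held 40 of the 53 peaks, and the 5 genes with windows from 23.1 to 37.8 kb held 2 to 4 each. Over the 8 genes, peak number and window length had a Spearman correlation of 0.61 and a Pearson correlation of 0.98, against 0.60 and 0.90 over all protein-coding genes. The 8 values share the same list, and the rank correlation moved with the genes and windows used. It was 0.03 without Fut8 and Fut9, 0.703 without Fut2, 0.735 with 50 kb either side and 0.97 with gene bodies only. Density and window length had a Spearman correlation of -0.71 over the 8 genes. The density was 16.8 per 100 kb at Fut1 (interval 4.59 to 43.1) and 13.0 at Fut7, against 6.58 at Fut8 and 6.64 at Fut9. It was lowest at Fut2, with 5.29 (interval 0.641 to 19.1). The intervals of all 8 densities overlap.

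Together the windows covered 698.3 kb and held 7.59 peaks per 100 kb (interval 5.69 to 9.93), against 4.53 pooled over all protein-coding windows. With 50 kb either side the density was 6.13 against 4.82, and in gene bodies alone 7.24 against 4.36. A line fitted to peak number on window length over all protein-coding genes, both on log scales, had a slope of 0.77. All 8 genes lay above this line, as did 55.4% of protein-coding genes. Observed against fitted numbers were 14 against 8.08 at Fut9, 17 against 9.61 at Fut8, 9 against 3.90 at Fut10 and 2 against 1.42 at Fut2. The ratio at Fut9 was 1.73. It was 1.47 against the pooled number of peaks per kb, 1.56 against the median of genes of like length, and 2.92 when gene bodies alone were counted and fitted. Fut1, with 4 against 0.696 (all of them nearer to another gene's start), and Fut7, with 3 against 0.66, lay beyond the line's upper 5% of genes, and the other 6 lay within the range of 90% of genes.

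The line runs low for long genes, as the plot of peak number by length shows, so genes of like length were also read. Protein-coding genes with a window within 20% of that of Fut9 had a median of 9 peaks, with quartiles of 6 and 12. For Fut8 the median was 11 with quartiles of 8 and 14, and for Fut10 it was 4 with quartiles of 2 and 6. Fut1 and Fut7, with 4 and 3 peaks, stood against a median of 1 and an upper quartile of 2. Fut4 and Fut11, with 2 peaks each, were at the upper quartile, and Fut2, with 2 against an upper quartile of 3, was inside the quartiles.

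**Figure D4:**
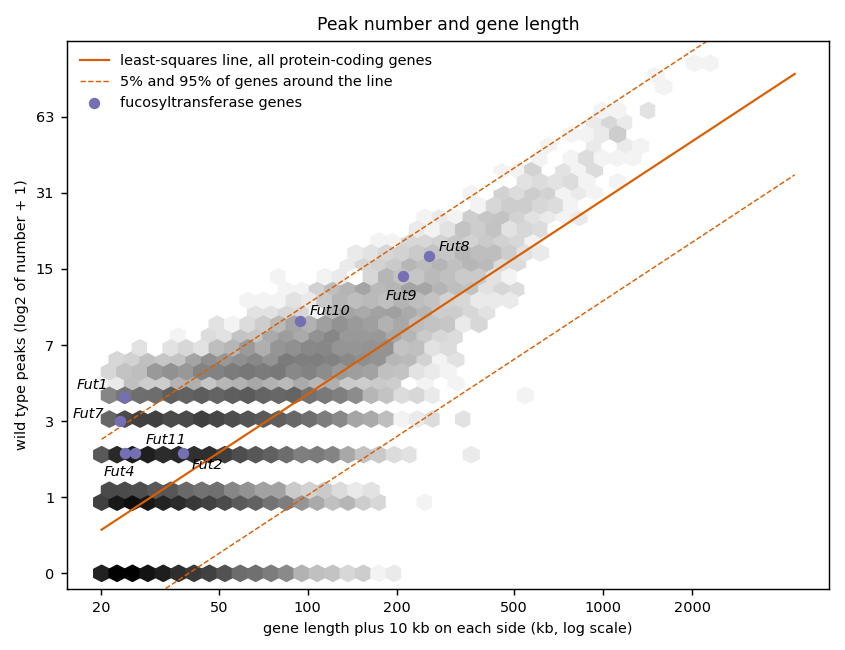
Wild type peaks per gene (y axis, log2 of number plus 1) by gene length plus 10 kb on each side (x axis, kb on a log scale) for all protein-coding genes, shaded by their number, with the 8 fucosyltransferase genes as points. The solid line is the least-squares fit and the dashed lines bound the middle 90% of genes; all 8 points lie above the solid line, and Fut1 and Fut7 above the upper dashed line.

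A list of 20 other genes of fucose metabolism and of the sugar chains that accept fucose gave a measure of the wider pathway. Of these, 17 had a wild type peak, against 78.3% of protein-coding genes, and their 83 peaks came to 5.19 per 100 kb, against 4.53 for all protein-coding windows. Of these, 1 peak, upstream of Fut2, was also counted at the neighbouring gene Sec1. The highest best scores were 16.9 at St3gal6, 10.2 at St3gal3 and 9.97 at B4galt1. St3gal6 and St3gal3 add sialic acid to galactose, and B4galt1 builds the N-acetyllactosamine chain that alpha1,3 enzymes fucosylate. No wild type peak was listed at Tsta3, which completes GDP-fucose synthesis, at Slc35c2, which is related to the GDP-fucose transporter, or at Pofut2, which fucosylates thrombospondin repeats. St3gal3 was the only gene of this list with an AHR KO peak, 1 of 20, against 4.47% of protein-coding genes.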

How the data were processed

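AHR ChIP and input libraries from mouse colon organoids (4 wild type pairs and 1 AHR KO pair, all given FICZ) were represented by 2 deposited peak lists. Single-end reads were aligned by the authors to mm10, after which they marked duplicates and called peaks of ChIP against input; the submitters' processing notes name BWA 0.7.15, Picard 2.1.1, MACS2 2.1.1 and HOMER 4.8. The score deposited by the authors for each peak is a ratio, read from its values as a fold enrichment of pileup plus 1 over background plus 1: 51.6% of wild type scores were whole multiples of a step of 0.332 (within 2e-05 per step), which gives a background of 2.01 fragments. The treatment of multi-mapping reads is not given in the sources used here, which bears on peaks in repeats. Depth per library was not analysed here and limits how firmly a gene without a peak can be read.

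Starts were read as counted from 0 and printed with 1 added. Gene positions were from GENCODE M21, and sequence and soft-masking from GRCm38. Motif words, CA repeats, AG runs and masking were measured in the 200 bp around each midpoint unless the whole peak is named. Peaks share a family when their whole widths hold at least 10 of the same 14-base words, linked in chains. Words of low complexity, such as CA or AG runs, were left out. The shares of the commonest family words over each list were also counted over whole peaks. Peak number was fitted as log2 of number plus 1 on log2 of window length over all protein-coding genes. Shares have Wilson intervals, a count of 0 the limit that 3 counts allow, and counts exact Poisson intervals, all intervals at 95%. No significance test was made. The members and lists were chosen with earlier results of these data known, and the sequence families, AG runs and the comparison at like length after seeing these peaks. Peaks named in full were the highest-scoring of each gene, those within 5 kb of a start, those with TNGCGTG, and those touching an AHR KO peak. The upstream Fut4 peak was added because its sequence was shown. Of the pathway list, the 3 highest best scores and each gene without a peak were named. Counting was tested on simulated peaks, where 0 of 300 windows differed from direct counting. Python 3.11.15, pandas 2.3.3 and scipy 1.17.1 were used.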

Additional observations from a re-analysis of the deposited data

How the results depend on the processing

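No paired analysis was possible because the peak lists hold no value per culture, although input and ChIP libraries share culture numbers, and for the same reason no culture could be left out. Values were kept as the same when a count stayed within 1.5 times, a share, density or ratio within its 95% interval, and a rank correlation within 0.1. Of 63 alternative values 43 were the same, 20 moved and 0 reversed; the causes were not tested. With the gene body only, 5 of the 8 genes had a wild type peak and 1 an AHR KO peak, 10 of the 20 pathway genes had a peak against 49.7% of protein-coding genes, the rank correlation of peak number with length was 0.97, and the ratio of Fut9 peaks to the fitted number was 2.92. With 50 kb either side the correlation was 0.735, and without Fut8 and Fut9 it was 0.03. With the top 10% of scores only (at least 7.14), 9 peaks remained at 5 genes, or 1.29 per 100 kb against 0.499 over all protein-coding windows, with 3 at Fut9, 2 at Fut8 and a correlation of 0.482. Of these 9, 77.8% were CA repeats, against 88.5% of all peaks this high, 6 held GCGTG, against 24.5% of all peaks this high, and 0 held TNGCGTG, and 4 of the 20 pathway genes had such a peak, against 23.0% of protein-coding genes. Over whole peaks TNGCGTG was in 2. At limits of 75% and 25% masked, 73.6% and 98.1% of peaks passed, against 62.3% and 99.5% of all wild type peaks. Leaving out each gene in turn, an alternative chosen after seeing the data, gave 7.26 to 8.18 peaks per 100 kb and 47.2% to 56.8% CA repeats. Counting only peaks nearest to the start of their own gene, also chosen afterwards, left 48 at 7 genes, with 0 at Fut1 and 1 at Fut11. The share of protein-coding genes with a peak by that rule was not computed.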
